A study of Rattus norvegicus with 6 samples.

Results

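Mucins are large glycoproteins whose serine- and threonine-rich stretches carry dense O-linked sugars. Membrane mucins are anchored in the apical membrane, where they form part of the glycocalyx, and secreted gel-forming mucins polymerise into mucus. In the oviduct both contribute to the surface and the fluid that sperm, eggs and embryos meet. The genes considered were 6 membrane mucins (Muc1, Muc4, Muc13, Muc15, Muc16 and Muc20) and 3 secreted mucins (Muc2, Muc5ac and Muc5b), taken where the array annotation gave a probe set exactly 1 symbol. This left 4 of the 9 genes, among 14506 genes in all: Muc1, Muc13, Muc15 and Muc20, each with 1 probe set. All 4 are membrane mucins. Muc2, Muc4, Muc5ac, Muc5b and Muc16 are not analysed here, and Muc6, a gel-forming mucin of gastric and other glands, stands in as the one gel-forming mucin that could be followed.

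RNA came from the endosalpinx, as the inner lining of the oviduct is called, and 1 array was hybridised per animal; the rats were adult Sprague-Dawley females of 240 to 280 g. The 3 mated rats joined fertile males in pro-estrus, at 2200 h, had sperm or a plug at the check 30 min later and stayed with the males. They were killed in estrus, at 0130 h, which was 3 h from mating, and semen was abundant in their uteri. The 3 unmated rats were kept isolated from pro-estrus and killed at the same clock time, with uterine edema noted. The company of a male and mating cannot be told apart in this design. The comparison asks how transcripts of the lining differ between mated and isolated unmated rats before ovulation.

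The array median lay between 7.89 and 7.94 log2 units on all 6 arrays. As a guide to background, a gene with a mean log2 signal at or below 7.13, the 95th percentile of odorant and pheromone receptor genes, is called within the receptor range, and 71.1% of genes lay above it. The tissue label was checked against markers. Of the oviduct secretory epithelium markers measured, 7 of 8 lay above the receptor range, with a mean log2 signal of 11.01 to 11.13 in mated rats and 10.96 to 11.07 in unmated rats. The brightest of that list were Krt8, Krt18, Epcam and Cdh1, at means of 12.20 to 12.97, Msx1 lay within the receptor range, and Ovgp1 was not measured. Of the ciliated cell markers, 7 of 8 lay above the receptor range. So did 6 of 7 fibroblast, 5 of 6 smooth muscle, 5 of 6 mesothelium and 4 of 5 endothelium markers. These counts therefore do not set the lining apart from other layers of the oviduct. Of the goblet cell markers of gut and airway, Agr2, Spdef and Tff3 lay above the receptor range while Clca1, Zg16 and Itln1 lay within it. Of 10 sperm and seminal vesicle genes, 8 lay within it and Prm1 and Prm2, sperm protamines, lay above it; the mean log2 signal of that list was 6.29 to 6.44 in mated rats and 6.34 to 6.37 in unmated rats. Both protamines were above the limit in the isolated unmated rats too, so lying above it does not by itself show expression. Prm1 was at 7.87, 7.99 and 7.98 in mated rats and 7.82, 7.69 and 7.82 in unmated rats, without overlap. In this list 1 gene was higher and 1, Tnp1, lower in mated rats without overlap, against 5.24% and 3.23% of all genes.

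Promoter windows are shown for Muc1 and Muc20, the members above the receptor range for which RefSeq (GRCr8) lists one and whose mean signals differed in opposite directions. Each is the 250 bases before the listed transcript start, on the plus strand, at chr2:176933500-176933749 for Muc1 and chr11:81492641-81492890 for Muc20. For both genes the RefSeq gene span begins upstream of this start. Capitals mark matches, on either strand, to TATAAA (the TATA box), GGGCGG (the GC box), GGTCA (a nuclear receptor half-site) or TTCNNNGAA (a STAT-type palindrome).
Muc1: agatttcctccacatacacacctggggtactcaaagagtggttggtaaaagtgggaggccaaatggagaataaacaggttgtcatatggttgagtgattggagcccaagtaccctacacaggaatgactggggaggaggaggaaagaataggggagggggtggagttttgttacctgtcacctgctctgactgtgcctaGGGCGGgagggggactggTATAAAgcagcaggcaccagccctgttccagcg
Muc20: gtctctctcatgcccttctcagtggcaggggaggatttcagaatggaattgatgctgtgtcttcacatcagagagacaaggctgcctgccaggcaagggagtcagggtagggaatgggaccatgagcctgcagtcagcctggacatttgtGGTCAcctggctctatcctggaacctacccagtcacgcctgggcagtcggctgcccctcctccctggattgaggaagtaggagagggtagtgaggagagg
The Muc1 window holds a TATAAA that begins 33 bases before the start and a GGGCGG that begins 51 bases before it. TATAAA occurs in 12.9% and GGGCGG in 30.5% of all 33469 promoter windows of this length. The Muc20 window holds neither, and has 1 GGTCA, 100 bases before the start, a motif present in 35.4% of windows. Neither window holds TTCNNNGAA, which 7.67% of windows do. In the order of protein-coding genes in RefSeq, Muc20 lies next to Muc4, and Muc6 lies next to Muc2.

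None of the 4 membrane mucins differed between mated and unmated rats beyond the spread between animals. By limma, 0 of 4 passed an adjusted p of 0.05, as did 0% of all genes, and 0 of 4 had an unadjusted p under 0.05, against 4.57% of all genes. The mated and unmated values of all 4 overlapped, whereas they did not overlap for 8.47% of all genes (5.24% with the mated values higher and 3.23% with them lower). Muc1, Muc13 and Muc15 had a higher mean in mated rats and Muc20 a lower one. By sign alone 53.2% of all genes were higher and 45.5% lower in mated rats. The median log2 fold change (mated minus unmated) was 0.14 over the 4 members and 0.01 over all genes. It was 0.04 without mated replicate 1 and 0.07 without mated replicate 3. In bulk tissue, fewer cells of a type and less RNA per cell cannot be told apart.

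**Figure D1:**
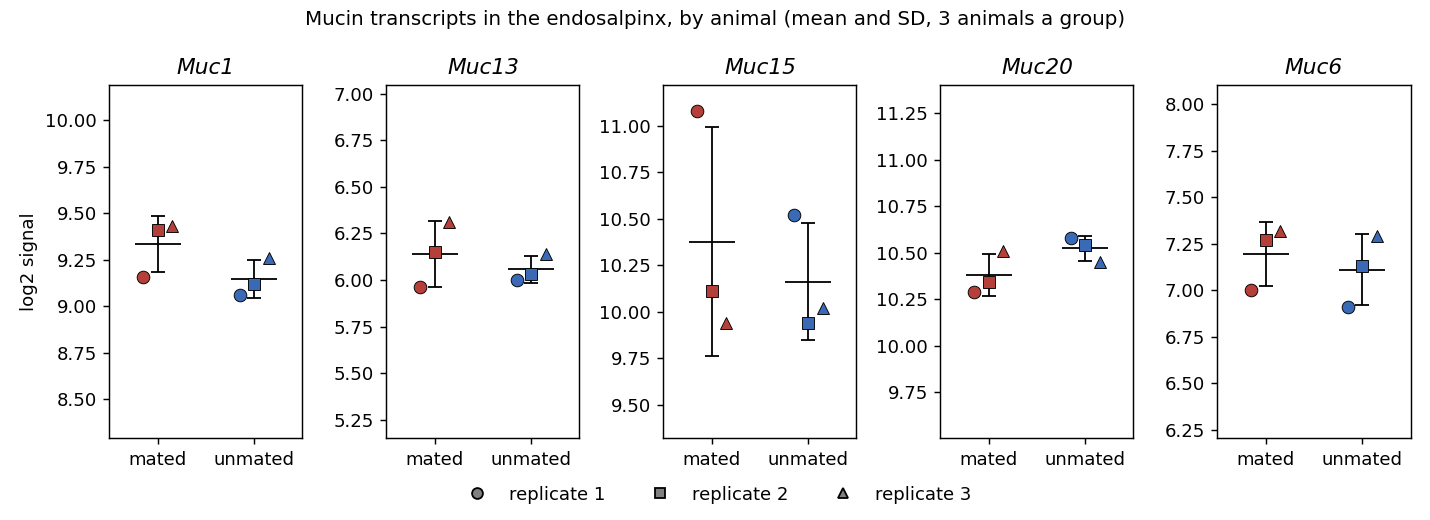
Log2 signal (vertical axes, each spanning the same width) of the 4 measured membrane mucins and of Muc6 in 3 mated and 3 unmated rats. Points are animals, with replicate numbers as symbols, and horizontal and vertical bars are the group mean and SD; the groups overlap in every panel, and Muc15 spans 1.14 log2 units over the 6 arrays while Muc20 spans 0.29.

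Muc1, a broadly used mucin of apical epithelial surfaces whose cytoplasmic tail takes part in signalling, had log2 signals of 9.16, 9.41 and 9.43 in mated rats and 9.06, 9.12 and 9.26 in unmated rats. Mated replicates 2 and 3 lay above all unmated animals, and mated replicate 1 lay among them. The means were 9.33 ± 0.15 in mated and 9.15 ± 0.10 in unmated rats (SD, n = 3 per group). The log2 fold change was 0.19 with a 95% confidence interval of -0.04 to 0.41, or 1.14-fold with an interval of 0.98 to 1.33 (adjusted p = 0.984 by limma). Of the 4 members Muc1 had the smallest p, at rank 1240 among all genes. Without mated replicate 1 the log2 fold change was 0.27, still short of the threshold (adjusted p = 0.506 by limma).

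Muc20, which in human cells has been described as a partner of the hepatocyte growth factor receptor Met, had log2 signals of 10.29, 10.34 and 10.51 in mated rats and 10.58, 10.54 and 10.45 in unmated rats. Mated replicates 1 and 2 lay below all unmated animals, and mated replicate 3 lay between them. The means were 10.38 ± 0.12 in mated and 10.52 ± 0.07 in unmated rats (SD, n = 3 per group), a log2 fold change of -0.14 (95% confidence interval -0.33 to 0.05, adjusted p = 0.984 by limma). Of the 16 alternatives, the replicate block, the variance fits, the dim-gene filters and the probe set mean cannot move this estimate. Under those that can, it stayed below 0, from -0.21 to -0.07. Met itself, measured as a partner, had a log2 fold change of 0.04 (-0.14 to 0.22).

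Muc13, a membrane mucin with EGF-like domains best known from the gut and airway, had log2 signals of 5.96, 6.15 and 6.31 in mated rats and 6.0, 6.03 and 6.14 in unmated rats. All 6 values lie within the receptor range, so the probe set was not separated from background. The means were 6.14 ± 0.18 in mated and 6.06 ± 0.07 in unmated rats (SD, n = 3 per group), and the log2 fold change of 0.08 had an interval of -0.14 to 0.31. Without mated replicate 3 it was -0.0017.

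Muc15, a membrane mucin first described in milk fat globule membranes, was the most variable of the 4. Its log2 signals were 11.08, 10.11 and 9.94 in mated rats and 10.52, 9.94 and 10.02 in unmated rats. One animal of each group, mated replicate 1 and unmated replicate 1, lay above the other 4 animals, which spanned 9.94 to 10.11. The means were 10.38 ± 0.62 in mated and 10.16 ± 0.31 in unmated rats (SD, n = 3 per group), and the log2 fold change of 0.22 had an interval of -0.45 to 0.88 (adjusted p = 0.984 by limma). Without mated replicate 1 it was -0.135, and without both high animals, an alternative chosen after seeing the data, it was 0.05. The residual SD of Muc15 within groups was 0.49 log2 units, against a median of 0.11 over all genes, and 71 of the 14506 genes (0.489%) had one at least as large. For Muc1, Muc13 and Muc20 it was 0.13, 0.13 and 0.09.

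The genes most like Muc15 across the 6 arrays were looked up after its spread was seen, by the smallest root mean square difference between deviations from each gene's own mean. Candidates were the 74 genes above the receptor range that varied at least as much as Muc15. They were Reg3g, an antibacterial lectin secreted by epithelia, with a difference of 0.14 log2 units, Htr3a, a serotonin-gated channel subunit, with 0.22, and Rab27a, with 0.25. Rab27a encodes a GTPase that docks secretory vesicles and belongs to the mucin release list. Reg3g had log2 signals of 9.43, 8.57 and 8.11 in mated rats and 8.73, 7.99 and 8.14 in unmated rats. Rab27a had 8.81, 7.58 and 7.19 in mated rats and 8.47, 7.83 and 7.88 in unmated rats. The 3 genes were chosen for likeness to Muc15, so a shared pattern is no separate result. Mated replicate 1 was the highest array for all 3 genes and for Muc15, and unmated replicate 1 the next highest. Among the cell type marker lists, the mean log2 signal of the leukocyte markers was highest on these 2 arrays, by a small margin. That mean was 7.24, 7.20 and 7.14 in mated rats and 7.23, 7.08 and 7.22 in unmated rats. Of the 6 leukocyte markers measured, 3 lay within the receptor range. Only Ptprc was itself highest on these 2 arrays (8.36 and 8.42), while Cd3e was lowest on mated replicate 1 (6.46). The part of the leukocyte markers in the Muc15 pattern was not tested. The mean log2 signal of the fibroblast markers was 7.46, 7.61 and 7.60 in mated rats and 7.88, 7.83 and 7.496 in unmated rats. That of the ciliated markers was 10.50, 10.29 and 10.23 in mated rats and 10.30, 10.47 and 10.36 in unmated rats, so in neither list did the 2 animals stand on the same side of the others.

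**Figure D2:**
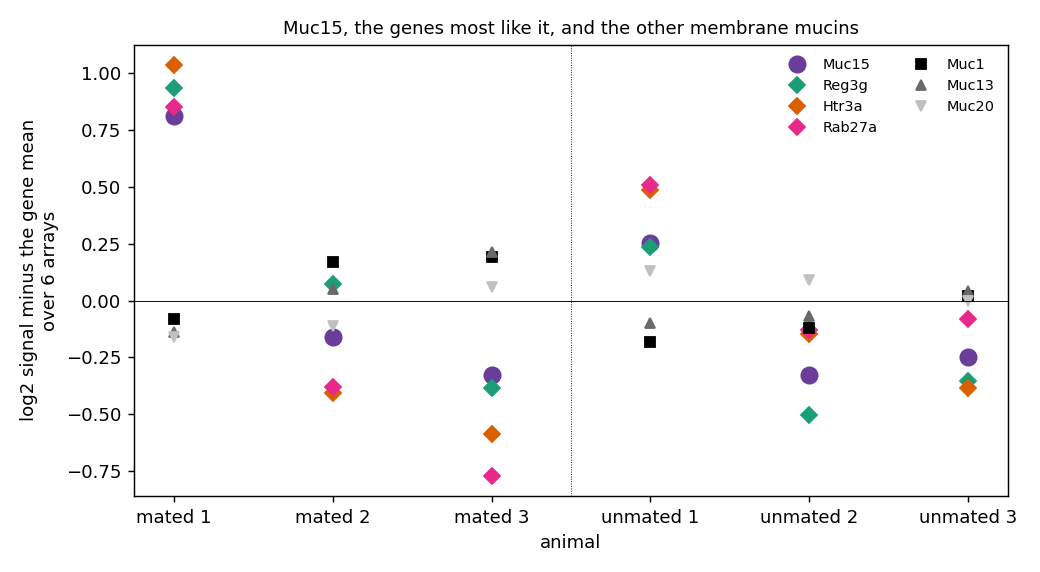
Log2 signal minus the gene's mean over the 6 arrays (vertical axis) for Muc15, the 3 genes most like it and the other membrane mucins, by animal (horizontal axis, mated left of the dotted line, unmated right). Muc15, Reg3g, Htr3a and Rab27a are high on mated replicate 1 and unmated replicate 1, while Muc1, Muc13 and Muc20 stay within a narrow band.

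Among the members, Muc1 and Muc13 followed each other most closely, with a root mean square difference of 0.07 log2 units over the 6 arrays, though Muc13 lies within the receptor range. Muc20 differed from Muc1 by 0.20 and from Muc13 by 0.15, and Muc15 differed from the other 3 by 0.47 to 0.50. The measure grows with a gene's own spread, and the SD of Muc15 over the 6 arrays was 0.45. Its values here therefore largely restate that spread. By the same measure, Muc1 was set against 2104 genes above the receptor range that varied at least as much, with the same symbols left out. The genes most like Muc1 were Gdf11, a secreted growth factor, at 0.036, Plac9 at 0.037 and Hmx1, a homeobox factor, at 0.043. With 6 arrays and so many candidates, close matches are a description only.

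The membrane and secreted classes could be set side by side only through Muc6. Its log2 signals were 7.0, 7.27 and 7.32 in mated rats and 6.91, 7.13 and 7.29 in unmated rats, which overlap. Its mean over all arrays, 7.15, lies just above the upper limit of the receptor range. The log2 fold change was 0.09 (95% confidence interval -0.19 to 0.37), and -0.01 without unmated replicate 1. The mean over the 4 membrane mucins differed by 0.09 log2 units between mated and unmated rats. That mean averages log2 fold changes from -0.14 (Muc20) to 0.22 (Muc15), and it includes Muc13, which lies within the receptor range. For each animal, the membrane mean deviation minus that of Muc6 was 0.26, -0.13 and -0.13 in mated rats and 0.27, -0.08 and -0.18 in unmated rats. The difference between the group means of this quantity was -0.00083, far smaller than the spread between animals.

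**Figure D3:**
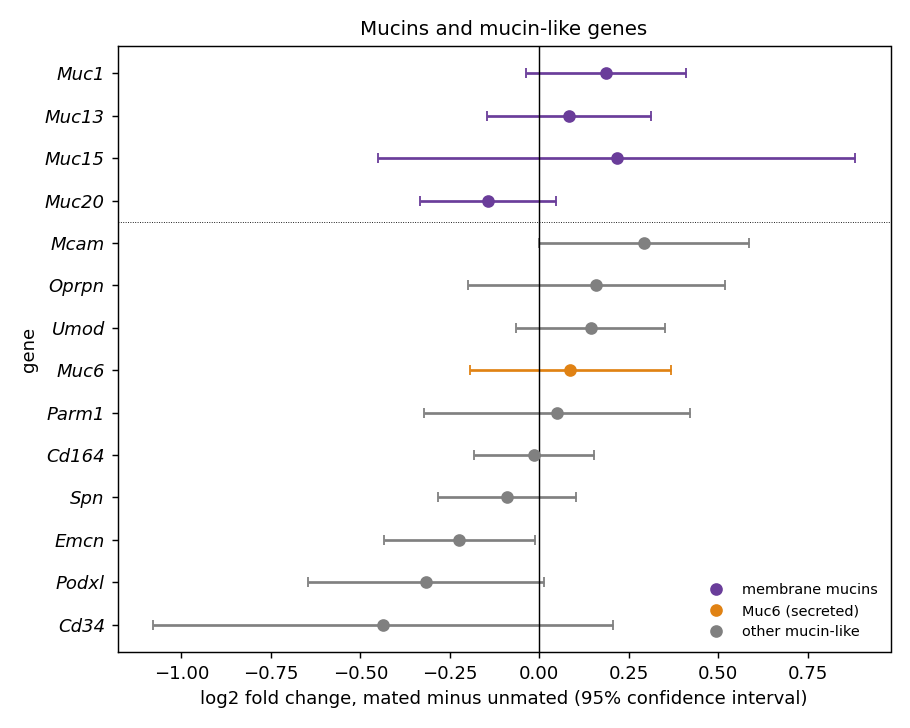
Log2 fold change, mated minus unmated (horizontal axis), with its 95% confidence interval, for the 4 membrane mucins (top) and 10 other mucins and mucin-like genes (below the dotted line), 3 animals per group. The intervals of the 4 membrane mucins and of Muc6 all span 0, and that of Muc15 is the widest of the 4.

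The enzymes that build O-linked sugars on mucins were followed as a list of which 24 of 30 genes were measured. By sign, 17 were higher and 7 lower in mated rats, against 53.2% and 45.5% of all genes. The median log2 fold change of the list was 0.05. By limma 0 passed the adjusted threshold, and 2 were higher at an unadjusted p under 0.05, against 3.02% of all genes. Fut2, which adds the terminal fucose of H antigens, had the smallest p of the list. It had log2 signals of 10.13, 10.34 and 10.50 in mated rats and 9.96, 9.94 and 10 in unmated rats, and the groups did not overlap. Its log2 fold change was 0.36 (95% confidence interval 0.13 to 0.58, adjusted p = 0.984 by limma). Gcnt3, which branches mucin sugar chains and is named because it is the other of the 2, was at 10.19, 10.68 and 10.67 in mated rats and 10.26, 10.14 and 10.11 in unmated rats. Its mated replicate 1 lay within the unmated range, and its log2 fold change was 0.34 (0.03 to 0.65). Without mated replicate 2, without mated replicate 3 or without unmated replicate 2, 1 gene of the list, Fut2, was higher at that p. Without unmated replicate 3 the 2 higher genes were Fut2 and B3gnt3, and not Gcnt3.

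Genes that fold, pack and release mucins were measured for 31 of 33 listed names. Of these 22 were higher and 8 lower in mated rats, against 53.2% and 45.5% of all genes, and the median log2 fold change was 0.03. By limma 0 passed the adjusted threshold, with 1 higher at an unadjusted p under 0.05, against 3.02% of all genes. That count was 0 without unmated replicate 2 and 2 without unmated replicate 1. Where it stayed at 1 the gene could change. It was Ern2 without mated replicate 1, Cftr without mated replicate 3 and Tff2 without unmated replicate 3. As deposited the gene was Creb3l1, a membrane-bound transcription factor of secretory cells, at 10.54, 10.43 and 10.67 in mated rats and 10.54, 9.91 and 10.02 in unmated rats. With 1 animal left out, Creb3l1 was under that p only without mated replicate 2 or without unmated replicate 1. Unmated replicate 1 lay within the mated range. Its log2 fold change was 0.39 (95% confidence interval 0.02 to 0.76, adjusted p = 0.984 by limma). Agr2, a protein disulfide isomerase that mouse intestine needs to make Muc2, had 8.27, 8.21 and 9.01 in mated rats and 8.30, 8.23 and 8.05 in unmated rats. A single animal, mated replicate 3, lay above the rest, and the log2 fold change of 0.30 (-0.16 to 0.76) was 0.05 without it. Spdef, a transcription factor of goblet cells, differed by -0.08 (-0.33 to 0.16), and by -0.18 without unmated replicate 1 and -0.01 without unmated replicate 2. Cftr, the chloride and bicarbonate channel whose secretion helps mucins expand, differed by 0.28 (-0.04 to 0.60), and by 0.17 without unmated replicate 3.

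Partners and shedding enzymes of membrane mucins were measured for 19 of 20 names. In mated rats 11 of them were higher and 8 lower, against 53.2% and 45.5% of all genes, with a median log2 fold change of 0.01. By limma 0 passed the adjusted threshold, while 1 gene was higher and 1 lower at an unadjusted p under 0.05, against 3.02% and 1.55% of all genes. The lower one, Lgals1, encodes the sugar-binding galectin-1. It was at 9.09, 9.46 and 9.43 in mated rats and 9.84, 9.65 and 9.69 in unmated rats, with no overlap and a log2 fold change of -0.40 (95% confidence interval -0.66 to -0.14, adjusted p = 0.984 by limma). The mean log2 signal of the fibroblast markers was 7.46 to 7.61 in mated rats and 7.496 to 7.88 in unmated rats. By sign 7 of 7 were lower in mated rats, against 45.5% of all genes. Their log2 fold changes ran from -0.46 (Dpt) to -0.0067 (Col3a1), with a median of -0.09. Among these markers 1, Dpt, was lower without overlap, against 3.23% of all genes. The part of the fibroblast markers in the Lgals1 result was not tested. The higher one, Itga1, a collagen-binding integrin subunit, differed by 0.41 (0.10 to 0.71), and by 0.27 without unmated replicate 2; without mated replicate 3 its unadjusted p was not under 0.05. Msln, the mesothelial protein that binds MUC16 in humans, differed by 0.06 (-0.28 to 0.40), and its direction turned without unmated replicate 3 (-0.11).

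**Figure D4:**
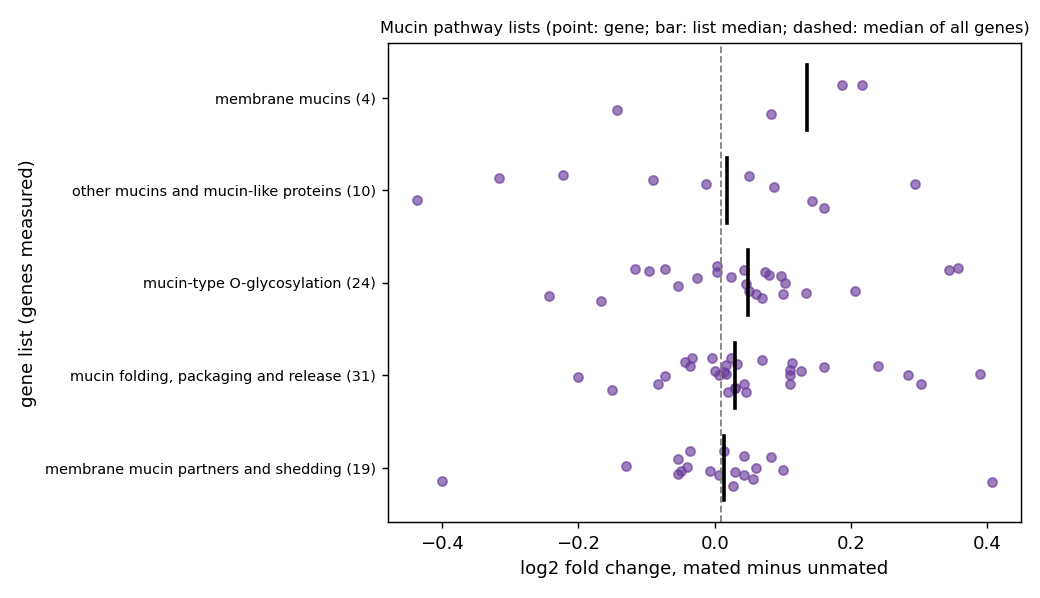
Log2 fold change, mated minus unmated (horizontal axis), of each measured gene (points) in the membrane mucins and the 4 lists of related genes (rows, with the number measured). Black bars are list medians, from 0.01 to 0.14, and the dashed line is the median of all genes at 0.01; points are jittered vertically.

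How far these arrays could resolve a mucin difference follows from the intervals. The 95% interval reached 0.22 log2 units to either side for Muc1, 0.19 for Muc20, 0.23 for Muc13 and 0.67 for Muc15, against 0.20 for the median gene. These intervals are not adjusted for how many genes were tested. The interval of Muc20 excluded rises above 1.03-fold and that of Muc1 rises above 1.33-fold, whereas that of Muc15 included both 0.73-fold and 1.84-fold. Replicate spread here is spread between separate animals.

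**Figure D5:**
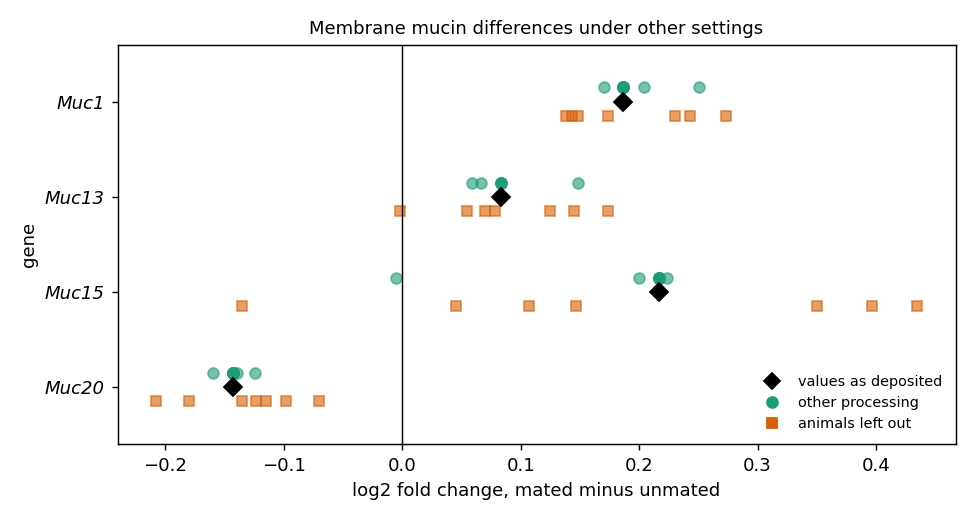
Log2 fold change of each membrane mucin, mated minus unmated (horizontal axis), in the values as deposited (diamonds), under other processing (circles) and with animals left out (squares). Muc1 stays above 0 and Muc20 below 0 in every setting tried, while Muc15 ranges from -0.135 to 0.435. The replicate block, variance fits, dim-gene filters and probe set mean cannot move these estimates, so their circles repeat the deposited value.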

How the data were processed

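Each animal gave 1 array. Per the labels' protocols, 0.3 µg of total RNA per sample was labelled as sense target by a whole-transcript kit. Per the submitters' processing notes, the authors used RMA and Affymetrix Expression Console, without versions, and deposited log2 signals; that they are log2 was read from the values and the named method. Because RMA equalises the distributions of the arrays, a change common to most transcripts would not show.

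Of 29214 probe sets, 15310 had exactly 1 symbol in the array annotation, 323 had several and 13581 had none listed. The brightest probe set per gene was kept, which gave 14506 genes. Odorant and pheromone receptor genes (1240) set the background guide, as in the results. The groups were compared with limma 3.58.1 in R 4.3.3 (lmFit, eBayes), Benjamini-Hochberg adjusted over all genes at 0.05, two-sided. The procedure was tested on simulated data.

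The members and lists were chosen with earlier results of these data known. All measured members were named, and from each list the gene of smallest p and a few genes named for their role; genes chosen after their values were seen are said to be so. The planned summary of secreted members could not be computed, as none had a single-symbol probe set. The alternatives were a block for the replicate number, array weights, robust or trended variance fits, other scalings, filters on dim genes, the mean over a gene's probe sets and leaving out each animal.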

Additional observations from a re-analysis of the deposited data

How the results depend on the processing

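No gene and no mucin passed the adjusted threshold under any of the 16 alternatives (15 for Agr2, Cd34, Itga1, Msln, Muc6 and Rab27a and 14 for Muc13 and Emcn, which dim-gene filters removed). The unadjusted p was under 0.05 for 663 genes as deposited, 1207 with array weights, 262 without the dimmest 50%, 1287 without mated replicate 1 and unmated replicate 1 (added after seeing the data), and 432 to 1403 when 1 animal was left out, the extremes falling without unmated replicate 2 and without mated replicate 1. Of the mucins, 0 stood there as deposited, 1 with array weights and 1 without both first replicates, and 0 to 1 when 1 animal was left out; the gene was Muc1 except without mated replicate 3, where it was Muc20. The median log2 fold change of the membrane mucins was 0.071 with array weights and 0.0375 to 0.14 when 1 animal was left out. Muc15 was at -0.0055 with array weights. When 1 animal was left out, the log2 fold change ranged from -0.135 to 0.435 for Muc15, -0.0017 to 0.17 for Muc13, -0.013 to 0.185 for Muc6, -0.11 to 0.19 for Msln (0.25 without both first replicates), -0.055 to 0.015 for Cd164 (0.03 without both) and -0.675 to 0.135 for Rab27a, which also read 0.005 without unmated replicate 1. Beyond fewer animals or genes, the cause was not tested. With the replicate number as a block, 0 genes passed the adjusted threshold, 672 had an unadjusted p under 0.05 and no adjusted call changed. Of the genes named, Cftr, Mcam and Podxl then also had an unadjusted p under 0.05 and Emcn no longer did. The labels do not say that numbers pair animals, and same-numbered arrays correlated at 0.0035, -0.083 and 0.074 in their deviations from the group means.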

Other observations

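Mucin-like genes of vessels and other cells were measured beside the epithelial mucins. Emcn, endomucin of blood vessels and the gene of smallest p in the list of other mucins, had log2 signals of 6.51, 6.47 and 6.58 in mated rats and 6.87, 6.79 and 6.57 in unmated rats, within the receptor range, and a log2 fold change of -0.22 (95% confidence interval -0.43 to -0.01, adjusted p = 0.984 by limma). The following genes were chosen after their values were seen. Podxl, a sialomucin of podocytes, vessels and epithelia, had 10.62, 10.41 and 10.43 in mated rats and 10.92, 11.02 and 10.47 in unmated rats, with 1 unmated animal inside the mated range. Mcam, a cell adhesion molecule of smooth muscle and endothelium, had 10.67, 10.68 and 10.93 in mated rats and 10.41, 10.27 and 10.72 in unmated rats. Cd34, a sialomucin of vascular and stromal cells, had 7.24, 7.12 and 7.32 in mated rats and 8.41, 7.41 and 7.17 in unmated rats, where a single animal stood apart; the log2 fold change of -0.44 was -0.06 without it. Cd164, a sialomucin of endosomes and the cell surface, had a log2 fold change of -0.01 (95% confidence interval -0.18 to 0.15). Of the 10 measured genes of that list, 5 were higher and 5 lower in mated rats, against 53.2% and 45.5% of all genes. By limma 0 passed the adjusted threshold, with 1 lower at an unadjusted p under 0.05, against 1.55% of all genes. That count was 0 without mated replicate 2, without unmated replicate 1 or without unmated replicate 2, and 3 without unmated replicate 3. Without mated replicate 1 the 1 lower gene was Podxl and not Emcn.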
